A study of Mus musculus with 36 samples.

Results

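Osteopontin (Spp1), neuritin (Nrn1), galectin 3 (Lgals3), the transferrin receptor (Tfrc), the surface glycoprotein CD24 (Cd24a), smoothelin (Smtn) and the metallothioneins Mt1 and Mt2 are 8 of the 45706 genes counted in mouse CD4 T cells that carry or lack a regulatory region of the transcription factor gene Ets1. They were selected on their change in RNA in untransduced Th1 cells of the mutant strain, or with a retrovirus carrying Ets1. The values they were chosen by are those of a second Th1 experiment, so these are given as a description with no test. The naive cells and the first Th1 and Th2 cultures were not used in the choice, and the members were tested there, between libraries that all carry B number 1 in their titles and differ only in T number. All 8 symbols matched 1 identifier each.

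The mutant strain, named C57BL/6J-Ets1-SE-KO in the labels and KO below, was set against C57BL/6J (WT), and neither the age of the mice nor the extent of the deletion is stated in these sources. T cells came from spleen and were enriched as naive CD4 cells with negative-selection beads. Naive KO and naive WT cells gave 2 libraries each, and KO Th1, WT Th1, KO Th2 and WT Th2 cells gave 3 each. Th1 cells had been cultured for 6 days on anti-CD3 with 10 ng/mL interleukin 12, 1 ng/mL interleukin 2 and anti-CD28, and the labels do not describe the culture for Th2. In the second Th1 experiment, untransduced KO and untransduced WT cells gave 2 libraries each, KO cells with an Ets1 retrovirus (Ets1-RV KO) 4, and WT cells with an empty-vector retrovirus (EV WT) 4. The virus groups thus differ from each other in genotype and in virus at once. The labels do not say whether transduced cells were separated from untransduced cells, nor whether libraries came from separate animals.

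Ets1 encodes a transcription factor that binds DNA around a GGAA core and is abundant in lymphocytes, where it takes part in T cell development and in the Th1 programme. The members have varied roles. Osteopontin is a secreted phosphoprotein that binds integrins and CD44 and is made by activated T cells, where its gene is a known target of the Th1 factor T-bet. Galectin 3 is a lectin that binds galactose-containing glycans inside and outside cells. Neuritin and CD24 are held in the membrane by a GPI anchor. The transferrin receptor imports iron and is induced when T cells divide. Smoothelin binds actin and is best known from smooth muscle, and metallothioneins bind zinc and other metals and are induced by them.

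In GRCm38 coordinates all 8 are protein-coding genes. Spp1 (ENSMUSG00000029304) lies on chromosome 5 from 104435118 to 104441050, Lgals3 (ENSMUSG00000050335) on chromosome 14 from 47367751 to 47386160, and Nrn1 (ENSMUSG00000039114) on chromosome 13 from 36725361 to 36735131. Cd24a (ENSMUSG00000047139) spans 43578284 to 43584265 of chromosome 10, Tfrc (ENSMUSG00000022797) 32608920 to 32632794 of chromosome 16 and Smtn (ENSMUSG00000020439) 3517523 to 3540612 of chromosome 11. Mt1 (ENSMUSG00000031765) and Mt2 (ENSMUSG00000031762) are neighbours on chromosome 8, from 94179082 to 94180327 and from 94172664 to 94173568, both on the plus strand. None lies on chromosome 9, which holds Ets1.

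Levels are raw CPM, a gene's share of all gene counts of its library on the usual CPM scale. Gene counts per library ran from 5069623 to 5852673 (naive), 7311614 to 10256407 (first Th1 and Th2) and 1813288 to 6844944 (second experiment, labelled groups). All 8 T cell markers were detected in every group, and the 5 Th1 markers summed to 690 to 1008 CPM in KO Th1 and 1188 to 1653 CPM in WT Th1 cells. Naive KO libraries carried Y-linked Uty RNA (45.0 and 50.2 CPM) and no Xist, and naive WT libraries the reverse, so genotype and sex cannot be told apart in naive cells. Titles give each library a B and a T number of unstated meaning. Every naive and first Th1 or Th2 library has B number 1, so their n of 2 or 3 counts T numbers, and if these mark repeat libraries of 1 source each of those groups is a single source and its p values measure technical spread. In the second experiment every group had B numbers 1 and 2: libraries of number 1 carried Uty and those of number 2 did not, and levels of 1 B number were summed, so that n = 2 per group. Ets1 RNA was at 214 and 239 CPM in untransduced KO cells, against 411 and 373 in untransduced WT cells (log2 fold change -0.75, SE 0.14, adjusted p = 0.0138). In Ets1-RV KO cells it was at 469, 446, 389.8 and 384 CPM, 0.85 higher on the log2 scale than in untransduced KO cells (SE 0.14, adjusted p = 0.0196); EV WT cells had 391, 379, 314 and 321 CPM. Gm27162, a noncoding RNA gene downstream of Ets1 on chromosome 9 (32904937 to 32928966), was at 0 in all labelled KO libraries and was detected in every labelled WT library.

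For 8 further libraries of the second experiment the title names one virus and the transduction label the other. Of these, 4 are titled KO with empty virus and labelled as given the Ets1 retrovirus, and 4 are titled WT with Ets1 virus and labelled as given the empty vector. The names of their deposited tables give yet another reading, in which genotypes are exchanged too. Gm27162 had 5, 9, 17 and 13 counts in the libraries titled KO with empty virus and no count in the libraries titled WT with Ets1 virus, which goes against the genotype in both titles. On Gm27162 the libraries titled KO with empty virus thus stood with the labelled WT libraries (1.63 to 6.28 CPM) and those titled WT with Ets1 virus with the labelled KO libraries, as the names of their tables have it. Since title and label disagree, these libraries enter no comparison, and KO and WT cells with the Ets1 virus were not each set against their own empty-virus cells.

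Promoter sequences were taken from RefSeq (GRCm38.p6), which held an entry for 6 of the 8 members, from 250 bases before to 50 after the RefSeq start. That start lay 7 to 46 bases from the GENCODE start for Spp1, Tfrc, Mt1 and Mt2. For Lgals3 it lay 6109 bases away and for Smtn 1320, so these windows lie inside the gene spans given above. The promoters of Spp1 and Tfrc are shown because these are the 2 members with less RNA in untransduced KO cells; capitals mark the Ets cores CGGAAG and AGGAAG, sought on both strands.
Spp1 (chr5:104434861-104435160, plus strand): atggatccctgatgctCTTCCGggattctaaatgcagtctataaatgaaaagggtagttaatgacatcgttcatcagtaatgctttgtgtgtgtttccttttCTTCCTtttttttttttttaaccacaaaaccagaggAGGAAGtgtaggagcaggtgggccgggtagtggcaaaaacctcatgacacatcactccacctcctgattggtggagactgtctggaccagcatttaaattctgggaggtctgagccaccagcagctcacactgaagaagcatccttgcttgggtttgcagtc
Tfrc (chr16:32608646-32608945, plus strand): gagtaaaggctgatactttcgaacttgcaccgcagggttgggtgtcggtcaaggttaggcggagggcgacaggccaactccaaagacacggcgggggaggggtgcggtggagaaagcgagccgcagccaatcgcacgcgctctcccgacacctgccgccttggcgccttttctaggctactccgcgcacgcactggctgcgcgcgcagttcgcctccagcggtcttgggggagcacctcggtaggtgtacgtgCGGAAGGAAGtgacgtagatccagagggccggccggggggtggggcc
The Spp1 window held 1 match to CGGAAG and 2 to AGGAAG, and in the Tfrc window 1 match to each overlaps the other. CGGAAG was found in 16.9% and AGGAAG in 35.4% of the 32851 promoters of the table, and a match describes letters only. CGGAAG was also found once in the RefSeq window of Lgals3, which had more RNA in untransduced KO cells, while that of Smtn held neither core. Matches to CGGAAG thus did not divide the members by direction. Among members with a window, AGGAAG was found only in Spp1 and Tfrc, and it stands in 35.4% of all promoters. Nrn1 and Cd24a had no window, and bases around the GENCODE starts of Lgals3 and Smtn were not searched, so nothing is read from this split. The promoters of the metallothioneins are shown because their RNA moved together. Capitals mark TGCNCNC on either strand, a looser pattern than the core of the metal response element (TGCRCNC, where R is A or G).
Mt1 (chr8:94178839-94179138, plus strand): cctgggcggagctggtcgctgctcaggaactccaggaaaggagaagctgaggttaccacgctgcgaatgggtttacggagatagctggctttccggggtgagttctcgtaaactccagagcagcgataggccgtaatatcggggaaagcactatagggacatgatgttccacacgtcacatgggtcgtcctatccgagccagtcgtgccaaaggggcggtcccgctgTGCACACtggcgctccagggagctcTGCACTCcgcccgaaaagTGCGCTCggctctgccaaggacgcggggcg
Mt2 (chr8:94172368-94172667, plus strand): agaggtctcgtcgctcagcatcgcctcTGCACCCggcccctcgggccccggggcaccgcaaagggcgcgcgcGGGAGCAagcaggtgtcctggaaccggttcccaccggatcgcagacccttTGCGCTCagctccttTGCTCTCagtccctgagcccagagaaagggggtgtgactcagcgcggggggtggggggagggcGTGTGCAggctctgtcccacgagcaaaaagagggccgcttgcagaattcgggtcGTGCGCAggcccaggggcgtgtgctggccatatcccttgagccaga
Mt1 held 3 matches and Mt2 6. At least 1 match stood in 51% of all promoters and more than 1 in 20.2%, and neither metallothionein promoter held CGGAAG or AGGAAG. Tfrc held 3 matches to TGCNCNC as well, the same number as Mt1, and Spp1, Lgals3 and Smtn held 0.

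In the second experiment, without virus, Spp1 and Tfrc RNA was less abundant in KO than in WT cells, and the other 6 members were more abundant. Ets1-RV KO cells had more Spp1 and Tfrc RNA than untransduced KO cells and less of the other 6, which is part of what chose the genes. Transduction itself and the Ets1 it carried cannot be told apart there, since no labelled KO group had the empty virus. In Ets1-RV KO cells the mean levels of Spp1, Tfrc, Smtn, Mt1 and Mt2 were 0.914 to 1.28 times those of EV WT cells, whereas Nrn1, Lgals3 and Cd24a stood at 2.11 to 2.28 times that level. Over all 11072 genes tested, 1.24% passed the threshold between untransduced KO and WT cells, 0.190% between Ets1-RV KO and untransduced KO cells and 0.560% between Ets1-RV KO and EV WT cells, and nothing is read from the members against these shares because the same contrasts chose them. The first and second of these comparisons share the untransduced KO libraries.

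Spp1, the secreted member, had 81.9 and 105 CPM in untransduced KO cells against 202 and 190.2 CPM in untransduced WT cells, a log2 difference of -1.07. It had 230.5, 214, 208 and 184 CPM in Ets1-RV KO cells, against 180.3, 175, 155 and 146 CPM in EV WT cells, a log2 difference of 0.35. Both untransduced KO libraries lay below every other labelled library of the experiment, and every Ets1-RV KO library lay above every EV WT library. Spp1 was the only member with less RNA than untransduced WT in every EV WT library, with a log2 difference of -0.26.

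Lgals3, the lectin, had 66.7 and 68.4 CPM in untransduced KO cells against 23.6 and 22.9 CPM in untransduced WT cells, so the KO mean was 2.90 times the WT mean. Ets1-RV KO libraries had 42.6, 48.4, 59.9 and 59.6 CPM and EV WT libraries 23.2, 28.9, 21.2 and 19.8 CPM, a ratio of 2.28. The Ets1-RV KO libraries lay between the untransduced KO and the WT libraries with no overlap on either side. Against untransduced KO the log2 difference was -0.36, the smallest of the 8 members, and within B number 2 it was -0.19. Macrophages are known to express Lgals3 and Spp1. The 15 myeloid markers summed to 75.0 to 76.5 CPM in untransduced KO and 51.4 to 66.1 CPM in untransduced WT cells, and to 73.4 to 78.9 CPM in Ets1-RV KO and 46.9 to 62.9 CPM in EV WT cells, with the macrophage genes Lyz2 and Csf1r at no more than 0.272 CPM in any of these libraries.

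Nrn1, a GPI-anchored protein that regulatory and anergic T cells are known to express, had 156 and 176 CPM in untransduced KO cells against 68.3 and 48.8 CPM in untransduced WT cells. It had 86.6, 87.4, 93.4 and 92.1 CPM in Ets1-RV KO cells against 51.1, 45.1, 36.9 and 37.4 CPM in EV WT cells. The ratios of the means were 2.84 untransduced and 2.11 between the virus groups, with no overlap in either.

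Cd24a, the other GPI-anchored member, showed the widest ratio of the 8 in untransduced cells, 3.50, with 40.0 and 28.1 CPM in KO against 11.3 and 8.18 CPM in WT cells. Ets1-RV KO cells had 16.5, 24.9, 19.3 and 17.1 CPM against 11.4, 10.7, 6.78 and 6.92 CPM in EV WT cells, a ratio of 2.20. These levels rest on few reads: the 4 Ets1-RV KO libraries held 293 Cd24a counts in all, and the 4 EV WT libraries 142. The libraries did not overlap in either comparison.

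Tfrc, the iron importer, had 138 and 165 CPM in untransduced KO cells against 289 and 276 CPM in untransduced WT cells, a ratio of 0.536. With virus the groups overlapped, at 345, 364, 310.4 and 287 CPM in Ets1-RV KO and 321, 319.8, 337 and 311 CPM in EV WT cells. The log2 difference between the virus groups was 0.03, at 0.15 within B number 1 and -0.10 within B number 2. Genes of cell division moved beside Tfrc. Of 15 proliferation genes, 6 were lower in untransduced KO than in untransduced WT cells and 0 higher (median log2 fold change -0.68, against -0.01 over all genes), among them Rrm2 (-1.47, SE 0.15, adjusted p = 2.16e-04), a subunit of ribonucleotide reductase, and the mitotic genes Birc5 (-1.26, adjusted p = 0.0138), Ccna2 (-1.12, adjusted p = 0.00415) and Ccnb1 (-1.11, adjusted p = 0.0280). Against untransduced KO, 4 of the 15 were higher in Ets1-RV KO cells and 0 lower (median 0.64), namely Birc5, Rrm2, Ccna2 and the chromatin gene Hmgb2. The part of cell division in the Tfrc values was not tested.

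Smtn, the actin-binding member, had 35.7 and 30.3 CPM in untransduced KO cells against 11.3 and 9.50 CPM in untransduced WT cells, a ratio of 3.17. Ets1-RV KO libraries had 24.0, 12.3, 10.3 and 13.1 CPM, against 10.6, 13.1, 8.90 and 13.5 CPM in EV WT libraries. A single Ets1-RV KO library thus stood above the range of EV WT and the other 3 fell within it. Without B number 1 of the Ets1-RV KO group, which includes that library, the log2 difference of 0.32 became -0.02.

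Mt1 had 196 and 169 CPM in untransduced KO cells against 94.9 and 94.1 CPM in untransduced WT cells, and Mt2 had 81.7 and 86.0 against 39.7 and 39.3 CPM. The ratios were close to each other, 1.93 for Mt1 and 2.12 for Mt2. With virus both overlapped between the groups, Mt1 at 103, 108, 105 and 108 CPM in Ets1-RV KO and 126, 127, 102.5 and 108 CPM in EV WT cells. Mt2 had 60.5, 52.5, 51.8 and 50.1 CPM in Ets1-RV KO cells and 64.8, 53.4, 46.2 and 43.7 CPM in EV WT cells. Every EV WT library lay above both untransduced WT libraries for both genes, with log2 differences of 0.30 for Mt1 and 0.40 for Mt2. Tfrc was the only other member for which this held. Over all genes, 0% passed the threshold in that last comparison by edgeR (268 genes at an unadjusted p under 0.05).

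**Figure D1:**
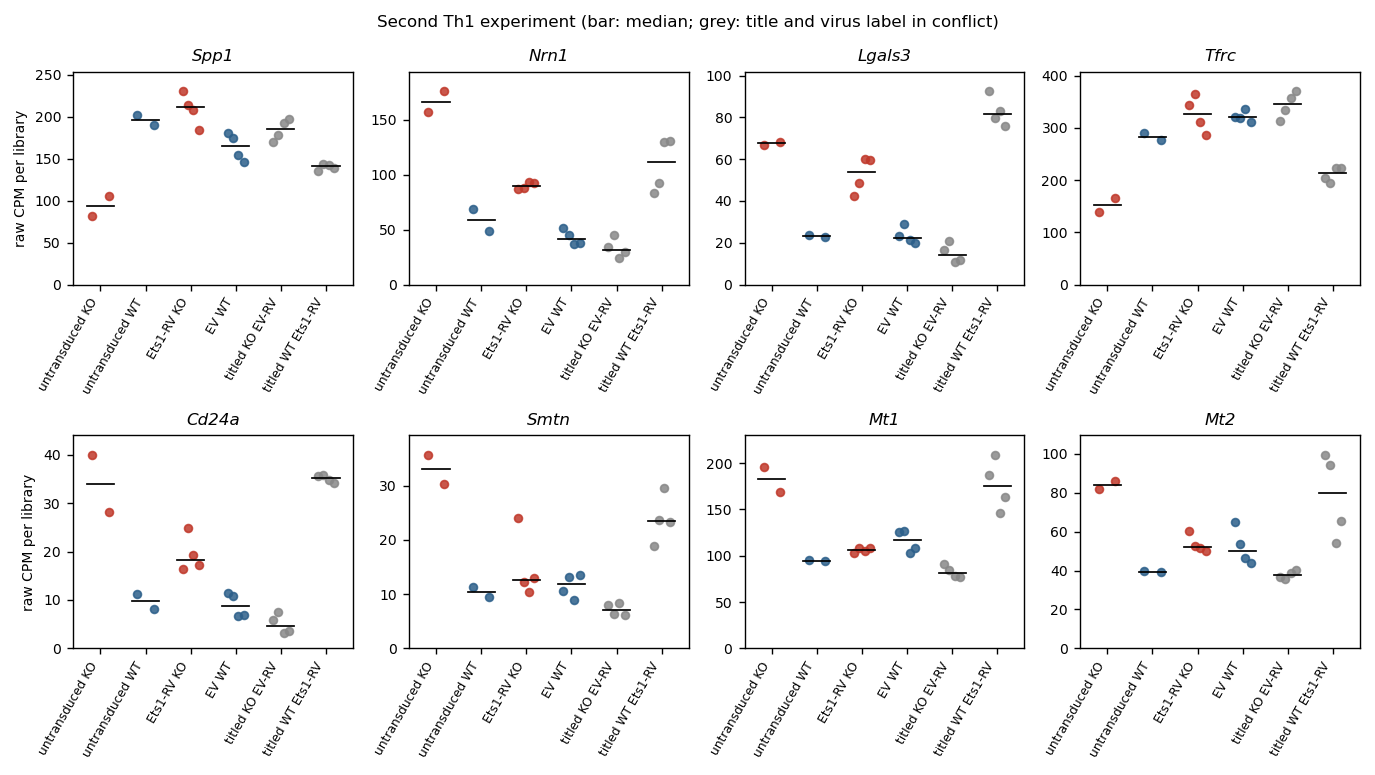
Raw CPM per library of the 8 members in the second Th1 experiment, 1 panel per gene, with the group median as a bar and the libraries of conflicting labels in grey. Lgals3 in Ets1-RV KO cells (42.6 to 59.9 CPM) lies between untransduced KO (66.7 and 68.4) and EV WT cells (19.8 to 28.9), while Tfrc in Ets1-RV KO cells overlaps EV WT.

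All 8 members differed in the same direction within B number 1 and within B number 2 between untransduced KO and WT cells, and between Ets1-RV KO and untransduced KO cells. Because these libraries chose the members, such agreement is a description only, and the share of all genes that show it was not computed. Between Ets1-RV KO and EV WT cells 4 of the 8 did so, and these were Spp1, Nrn1, Lgals3 and Cd24a. Within B numbers 1 and 2 the log2 differences of Nrn1 were 0.85 and 1.32, those of Lgals3 0.82 and 1.55 and those of Cd24a 0.93 and 1.42. The virus groups kept a difference in those 3 genes in each B number, smaller in each case in number 1. Of the lists of related genes, no gene of iron handling (14 tested), zinc handling (18), the galectin group (9), the osteopontin receptor group (9), the anergy and GPI-anchor group (15), the cytoskeleton group (12) or proliferation (15) passed the threshold between Ets1-RV KO and EV WT cells. Markers of T helper state differed between these groups: of 4 Th2 markers tested 2 were higher in Ets1-RV KO cells, the cytokine gene Il13 (3.05, SE 0.30, adjusted p = 3.20e-04) and Gata3 (2.65, SE 0.34, adjusted p = 0.00248), the gene of the main Th2 factor. The 6 Th2 markers summed to 88.0 to 159 CPM in Ets1-RV KO and 39.9 to 50.6 CPM in EV WT cells, and to 68.3 to 93.8 CPM in untransduced KO and 36.2 to 37.4 CPM in untransduced WT cells. Of 5 Th1 markers tested between Ets1-RV KO and EV WT cells, 0 were higher and 0 lower (median log2 fold change -0.29). Ifng, the gene of interferon gamma, was lower in untransduced KO than in untransduced WT cells (-1.63, SE 0.21, adjusted p = 0.00163). Trdc, a gamma-delta T cell receptor gene, was lower in both comparisons (-2.94, adjusted p = 0.00332, between Ets1-RV KO and EV WT, and -2.80, adjusted p = 0.0290, untransduced). The part of these markers in the members' values was not tested. Between untransduced KO and WT cells, beside proliferation, the GPI-anchored Thy1 (-0.73, adjusted p = 0.0138) and Ly6c1 (-0.78, adjusted p = 0.0487) were lower, in the direction opposite to Nrn1 and Cd24a.

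**Figure D2:**
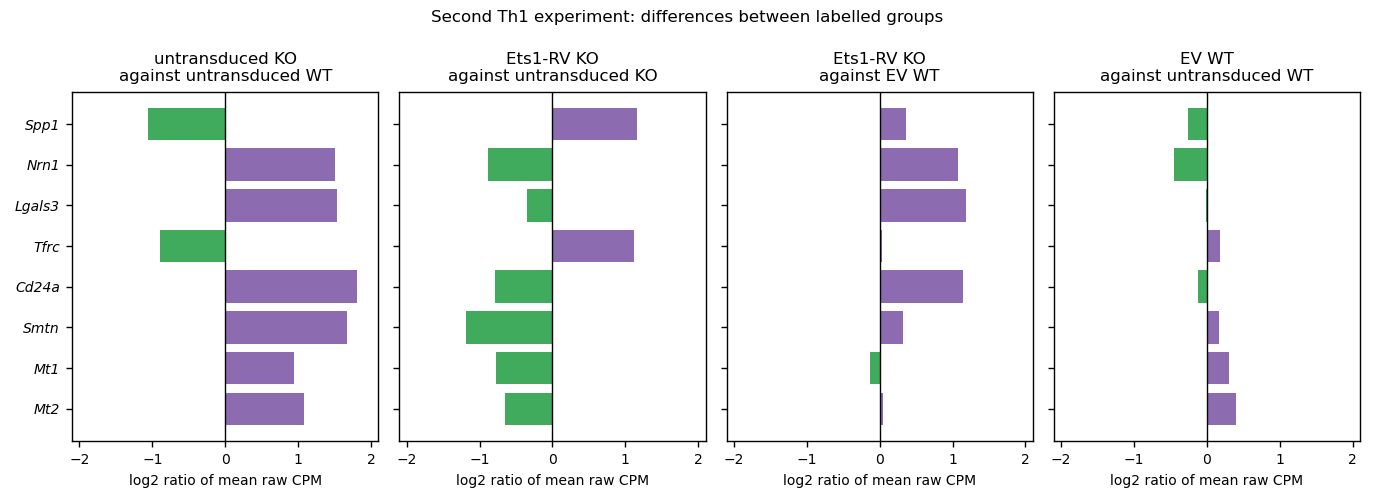
Log2 ratio of mean raw CPM for each member in 4 comparisons of the second experiment (bars right of 0 are higher in the group named first). Nrn1, Lgals3 and Cd24a are at 1.07, 1.19 and 1.14 between Ets1-RV KO and EV WT cells, where the other 5 members lie between -0.13 and 0.35.

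In naive cells 5 members were barely present. Spp1 had no count in any of the 4 libraries, which allows up to 0.256 CPM over the 2 naive WT libraries (3 counts, counting error only). Summed over 2 libraries, Smtn had 2 counts in naive KO and 11 in naive WT, Mt1 2 and 9, Mt2 0 and 4, and Nrn1 17 and 3. These did not pass the filter on low counts and were not tested between the naive genotypes. The other 3 passed it. Tfrc was at 36.1 and 40.2 CPM in naive KO and 42.9 and 39.8 CPM in naive WT cells, Cd24a at 7.30 and 3.64 against 8.90 and 8.54 CPM, and Lgals3 at 5.72 and 4.33 against 1.88 and 1.20 CPM.

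Lgals3 was higher in naive KO than in naive WT cells, with a log2 fold change of 1.68 (SE 0.48, adjusted p = 0.00542), on 54 and 18 counts. Cd24a (-0.71, SE 0.31, adjusted p = 0.106) and Tfrc (-0.12, SE 0.13, adjusted p = 0.604) did not pass the threshold. So 1 of 3 members tested was called, against 17.7% of all genes. The Lgals3 call ended with DESeq2 (adjusted p = 0.102) and without naive WT library 2 (0.122), naive KO library 1 (0.196) or naive KO library 2 (0.148). Lgals1, the gene of galectin 1, was higher in the same comparison (1.64, SE 0.13, adjusted p = 9.41e-30), and the galectin 3 binding protein gene Lgals3bp was lower (-0.78, adjusted p = 1.11e-10). Of the 15 myeloid markers, whose cells are known to express Lgals3, all were detected in both groups and summed to 207 to 221 CPM in naive KO and 242 to 250 CPM in naive WT cells. Other lineages differed as well. The 9 erythroid markers found summed to 10.2 to 10.3 CPM in naive KO and 34.5 to 35.6 CPM in naive WT cells, the 9 granulocyte and mast cell markers to 2.17 to 2.94 against 11.1 to 12.3 CPM, and the 8 B cell markers to 186 to 187 against 251 to 254 CPM. The 2 CD8 genes summed to 35.0 to 35.5 CPM in naive KO and 17.3 to 17.4 CPM in naive WT cells (Cd8b1 1.102 higher on the log2 scale, SE 0.17, adjusted p = 9.04e-09). Their part in these values was not tested, and in bulk samples fewer cells of a type and less RNA per cell cannot be told apart.

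All 8 members had more RNA in WT Th1 and WT Th2 cells than in naive WT cells, but culture and set of libraries cannot be told apart there. From pooled counts, Spp1 was at least 590-fold higher in WT Th1 and at least 92.5-fold higher in WT Th2 than the limit that no count allows in naive WT cells. Mt1 was 313-fold higher in WT Th1 (95% counting interval 165 to 684) and 245-fold in WT Th2 (129 to 536), and Nrn1 355-fold (121 to 1722) and 372-fold (127 to 1805). Mt2 was 248-fold (96.8 to 912) and 149-fold (58.0 to 548) higher, and Smtn 24.3-fold (13.5 to 49.0) and 14.7-fold (8.08 to 29.7). The 3 members tested in naive cells rose as well, with log2 fold changes in WT Th1 and WT Th2 of 5.60 and 5.61 for Lgals3 (adjusted p = 4.34e-13 and 4.55e-13), 3.17 and 2.09 for Tfrc (3.54e-16 and 1.46e-12) and 1.51 and 1.01 for Cd24a (3.76e-06 and 8.83e-04). In these fits 76.1% and 76.9% of all genes passed the threshold.

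**Figure D3:**
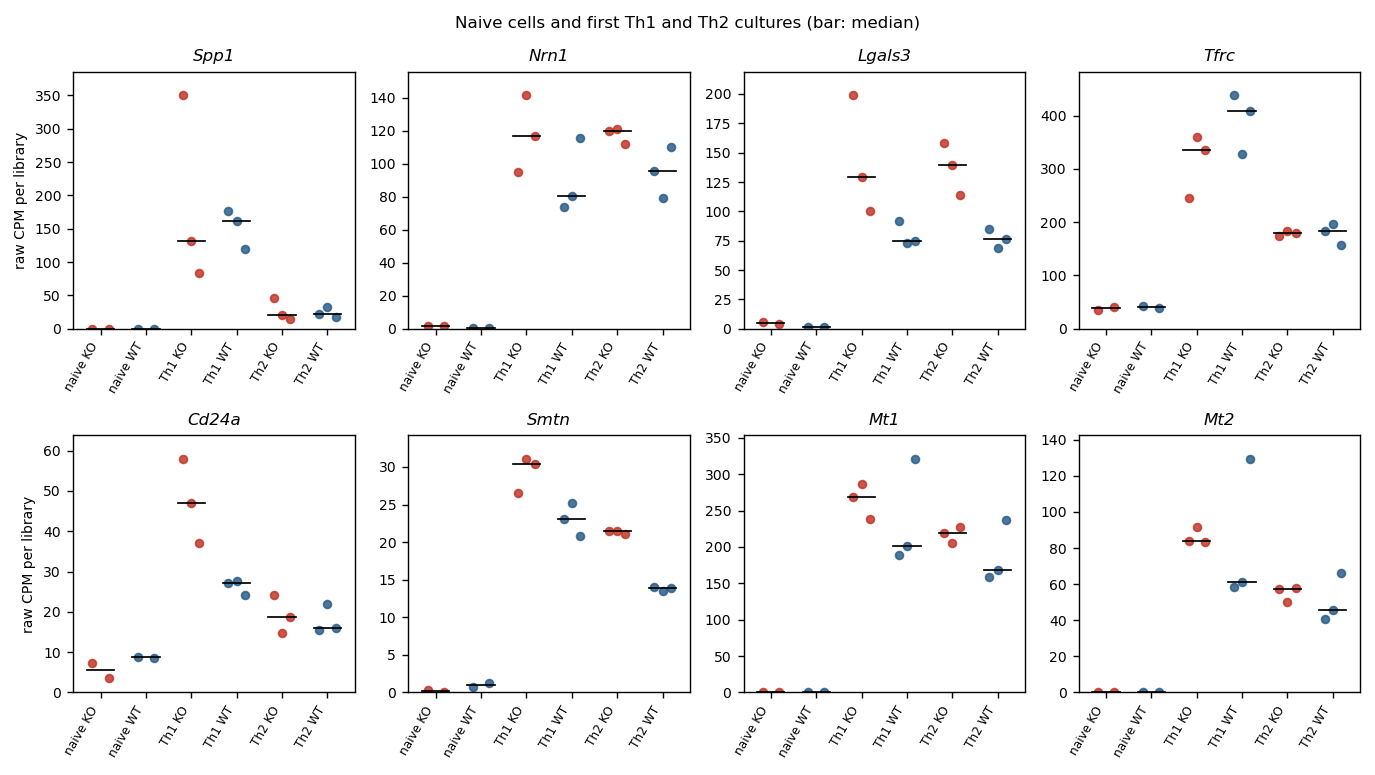
Raw CPM per library of the 8 members in naive cells and in the first Th1 and Th2 cultures, with the group median as a bar. Cd24a in KO Th1 cells (37.1 to 58.0 CPM) lies above WT Th1 cells (24.2 to 27.7 CPM), and Spp1 has no count in naive cells.

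In the first Th1 culture Lgals3 and Cd24a were higher in KO than in WT cells. Lgals3 had 199, 129 and 101 CPM in KO Th1 against 91.5, 72.8 and 75.0 CPM in WT Th1 cells, a log2 fold change of 0.83 (SE 0.17, adjusted p = 0.0109). Cd24a had 58.0, 47.0 and 37.1 CPM against 27.2, 27.7 and 24.2 CPM, also 0.83 (SE 0.16, adjusted p = 0.00647). In both genes every KO library lay above every WT library, and both calls stood under each of the 12 alternative settings run, at adjusted p values of at most 0.0435 for Lgals3 and 0.0364 for Cd24a. With 2 of 8 members called, all genes stood at 3.66%. Markers of T helper state moved beside them. Of 6 Th2 markers 3 were higher in KO Th1 than in WT Th1 cells, namely Il13 (1.11, SE 0.27, adjusted p = 0.0243), Il4 (0.93, SE 0.23, adjusted p = 0.0290) and Gata3 (0.84, SE 0.20, adjusted p = 0.0227), and the 6 summed to 532 to 992 CPM in KO Th1 and 306 to 505 CPM in WT Th1 cells. Ifng was lower in KO (-1.38, SE 0.19, adjusted p = 6.10e-04), 1 of 5 Th1 markers. Trdc was lower too (-2.08, SE 0.33, adjusted p = 0.00155) and Cd8b1 higher (0.76, SE 0.20, adjusted p = 0.0422), with the 2 CD8 genes at 6.95 to 9.82 CPM in KO Th1 and 4.68 to 6.88 CPM in WT Th1 cells. The part of these markers in the Lgals3 and Cd24a values was not tested.

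The other 6 members did not pass the threshold in Th1 cells. Smtn had 26.5, 31.1 and 30.4 CPM in KO Th1 and 23.0, 25.2 and 20.8 CPM in WT Th1 cells, without overlap (0.35, SE 0.10, adjusted p = 0.0624). Nrn1 had 95.02, 142 and 117 CPM in KO Th1 and 73.7, 80.2 and 116 CPM in WT Th1 cells, overlapping (0.38, SE 0.15, adjusted p = 0.183). Tfrc overlapped too, at 245, 361 and 336 CPM in KO Th1 and 439, 328 and 409 CPM in WT Th1 cells (-0.33, SE 0.11, adjusted p = 0.130). Spread between libraries was wide in several of these genes. Spp1 ranged from 82.9 to 351 CPM in KO Th1 and from 119.7 to 177 CPM in WT Th1 cells, so that its log2 fold change of 0.29 had an SE of 0.37 (adjusted p = 0.759). Without KO Th1 library 1 or another single library it ranged from -0.53 to 0.65. For Mt1 (0.15, SE 0.16, adjusted p = 0.710) and Mt2 (0.05, SE 0.21, adjusted p = 0.938) WT Th1 library 3, at 321 and 129 CPM, stood far above the other WT libraries, at 189 and 201 CPM of Mt1 and 58.2 and 61.0 CPM of Mt2. Without that library Mt2 was called higher in KO, at 0.52 (adjusted p = 0.0416), and so was Nrn1, at 0.60 (adjusted p = 0.0177). Tfrc (-0.44, adjusted p = 0.0388) and Smtn (0.42, adjusted p = 0.0431) passed without WT Th1 library 2.

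Among related genes in Th1 cells, Lgals7, another galectin gene, was higher in KO (1.07, SE 0.21, adjusted p = 0.00704), 1 of 10 tested in its list beside Lgals3, with 0 lower. In the osteopontin receptor group the integrin subunits Itga4 (-1.03, SE 0.17, adjusted p = 0.00228) and Itga5 (-0.66, adjusted p = 0.0218) were lower and Itgb3 (0.60, adjusted p = 0.0221) was higher, 3 of 9 tested. In the anergy and GPI-anchor group 3 of 16 were lower and 0 higher: the ubiquitin ligase gene Cblb (-0.76, adjusted p = 0.00292), Prnp (-0.47, adjusted p = 0.00557) and Thy1 (-0.45, adjusted p = 6.59e-04). In the cytoskeleton group 3 of 14 were lower, namely Cnn3, Flna and Tagln2 (-0.40, -0.28 and -0.21), and 0 higher. Iron handling had 1 of 16 lower, Pcbp1 (-0.27, adjusted p = 0.0363), whose protein delivers iron to ferritin. Zinc handling had 0 of 18 called and proliferation 1 of 15 (Myc, -0.33, adjusted p = 0.0408). The median log2 fold changes of these lists lay between -0.21 and 0.02, and that of all genes was 0.00. Of the defining myeloid genes, Lyz2 had no count and Csf1r at most 0.0975 CPM in KO and WT Th1 cells, and the whole list of 15 summed to 73.5 to 81.2 CPM in KO and 61.5 to 72.1 CPM in WT.

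In Th2 cells Smtn was higher in KO than in WT cells, with 21.4, 21.4 and 21.04 CPM in KO Th2 against 13.99, 13.5 and 13.8 CPM in WT Th2 cells (log2 fold change 0.59, SE 0.11, adjusted p = 0.0268). The KO and WT libraries were far apart for their spread, but the call ended without any one of the 6 libraries (adjusted p from 0.0651 to 0.122) and with counts without strand (0.0897). Lgals3 had 158, 139.6 and 114 CPM in KO Th2 and 84.8, 69.2 and 76.5 CPM in WT Th2 cells, with no overlap and a log2 fold change of 0.80 (SE 0.18, adjusted p = 0.0618). It passed when the Th2 libraries were fitted alone (adjusted p = 0.00252). In all 1 of 8 members was called, against 0.325% of all genes.

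Of the remaining members in Th2 cells, Nrn1 was at 119.6, 121 and 112 CPM in KO and 95.8, 79.5 and 110.4 CPM in WT, with no overlap but no call (0.26, adjusted p = 0.636). Cd24a overlapped, at 24.1, 14.7 and 18.7 CPM in KO Th2 and 15.6, 21.9 and 16.1 CPM in WT Th2 cells (0.06, SE 0.19, adjusted p = 0.967). Tfrc (-0.04), Spp1 (0.12), Mt1 (0.17) and Mt2 (0.07) also overlapped and had adjusted p values of 0.849 or more. In the lists Prnp alone was called between KO and WT Th2 cells (-0.59, SE 0.09, adjusted p = 0.00448).

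**Figure D4:**
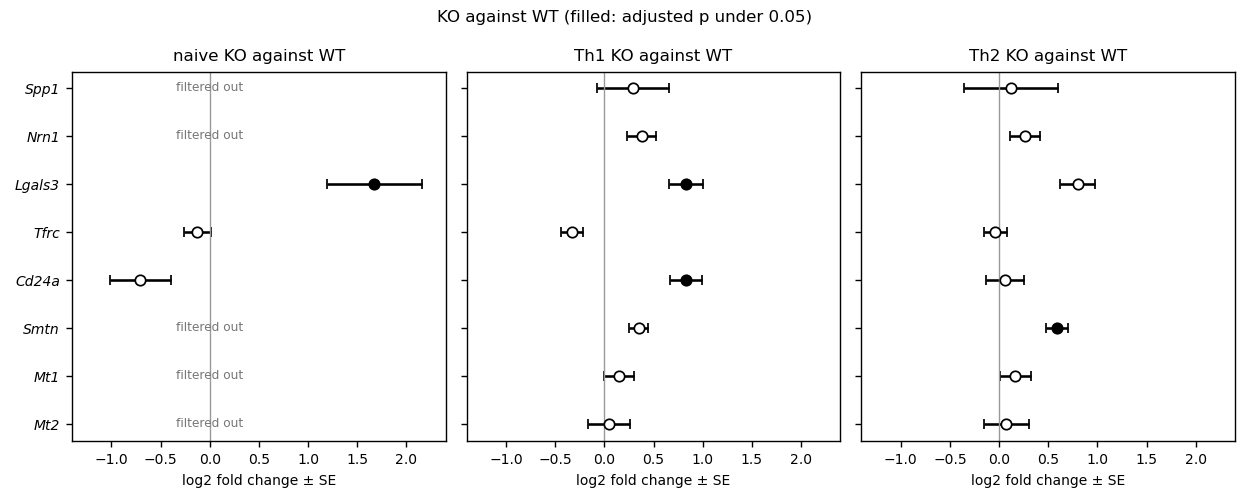
Log2 fold change of KO against WT with its SE for each member in naive, Th1 and Th2 cells (filled points have an adjusted p under 0.05). Lgals3 lies at 1.68, 0.83 and 0.80 and Cd24a at -0.71, 0.83 and 0.06 in the 3 panels.

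The KO effect was also compared between cell states. Between Th1 and Th2 cells it differed for 0 of 8 members, and over all genes for 0% of 12616 by edgeR, with 1225 genes at an unadjusted p under 0.05 and 20 genes called by DESeq2. For Cd24a the difference was 0.77 (SE 0.25, adjusted p = 0.348), so a KO effect in Th1 cells alone is not shown. Naive KO and WT libraries differ in sex, while all first Th1 and Th2 libraries carried Xist and no Uty. Contrasts of naive with Th cells thus hold sex as well as genotype. Between naive and Th1 cells the KO against WT difference of Cd24a differed by -1.55 (SE 0.38, adjusted p = 0.0232), where 3.05% of all genes passed. The log2 fold changes were -0.71 in naive cells, which was not called there, and 0.83 in Th1 cells. The Cd24a call between naive and Th1 cells ended without naive WT library 1 (-1.50), naive WT library 2 (-1.56) or naive KO library 2 (-1.11). Between naive and Th2 cells, where 3.29% of all genes passed, the 3 members tested in naive cells were not called (Lgals3 0.87, Cd24a -0.78 and Tfrc -0.09, adjusted p from 0.336 to 0.892). For Lgals3 the KO effect did not differ between naive and Th1 cells beyond its error (0.84, SE 0.67, adjusted p = 0.594).

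Several members were higher in Th1 than in Th2 cells. In WT cells Spp1 was 2.61 higher on the log2 scale in Th1 than in Th2 cells (SE 0.43, adjusted p = 1.40e-04), with 177, 161 and 119.7 CPM in WT Th1 and 21.5, 32.6 and 17.4 CPM in WT Th2 cells. Tfrc was 1.06 higher (SE 0.12, adjusted p = 1.57e-06) and Smtn 0.67 higher (SE 0.11, adjusted p = 1.58e-04). Each of these 3 had no overlap between WT Th1 and WT Th2 libraries, and neither had Cd24a. How many of all genes lack overlap there was not computed, so nothing is read from this count. Mt2 (0.64, adjusted p = 0.0371) and Cd24a (0.49, adjusted p = 0.0474) were called too, but Mt2 was at 0.16 without WT Th1 library 3 (adjusted p = 0.433) and also lost its call without WT Th2 library 1 (0.160) or 2 (0.0971), with DESeq2 (0.122) and with the WT groups fitted alone (0.0931), and Cd24a lost its call without any of 4 libraries, WT Th1 library 1 or 2 or WT Th2 library 1 or 3 (adjusted p from 0.109 to 0.168). Thus 5 of 8 members were called, all higher in Th1, against 29.5% of all genes in either direction. Lgals3 (-0.01, SE 0.18, adjusted p = 0.961), Nrn1 (-0.15, adjusted p = 0.484) and Mt1 (0.26, adjusted p = 0.230) were not. Mt1 passed with no filter on low counts (adjusted p = 0.00212) and without WT Th2 library 3 (0.0273), and Nrn1 was lower in Th1 without WT Th1 library 3 (-0.37, adjusted p = 0.0456).

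In KO cells Th1 libraries lay above Th2 libraries without overlap for Spp1 (2.78, SE 0.43, adjusted p = 1.22e-04), Tfrc (0.77, SE 0.12, adjusted p = 1.09e-04), Cd24a (1.27, SE 0.17, adjusted p = 3.24e-05) and Smtn (0.43, SE 0.10, adjusted p = 0.00678). These 4 were the members called, against 17.5% of all genes. Mt2 missed the threshold at 0.61 (adjusted p = 0.0626) and Mt1 at 0.24 (adjusted p = 0.325), although their KO Th1 libraries also lay above all KO Th2 libraries. The share of all genes without overlap was not computed, here or for any other pair of groups. Mt2 passed with the replicate block (0.0117), with no filter on low counts (1.18e-09) and with the KO groups fitted alone (4.15e-05), and Mt1 in the last 2 of these (0.00968 and 0.0213). Over all 12 alternatives the adjusted p ran up to 0.198 for Mt2 and 0.577 for Mt1.

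By group median, the order of levels over the 10 labelled groups differed among the members, and neighbours in it often overlapped. The order crosses sets of libraries, and set and cell state cannot be told apart between them. The 10 genes with most counts took 23.2% to 27.9% of gene counts in first Th1 and Th2 libraries. In labelled libraries of the second experiment they took 37.6% to 47.75%, which lowers the raw CPM of other genes. Lgals3 was highest in KO Th2 and KO Th1 cells, which overlapped, then in WT Th2 and WT Th1 cells, which overlapped as well, then without overlap in untransduced KO and in Ets1-RV KO cells, with untransduced WT and EV WT below and naive cells last. Cd24a was highest in KO Th1 and untransduced KO cells, which overlapped, followed by WT Th1 cells with no overlap. Smtn had the same groups at its top. Spp1 was highest in Ets1-RV KO and untransduced WT cells, although 1 KO Th1 library, at 351 CPM, lay above both. Tfrc was highest in WT Th1, KO Th1, Ets1-RV KO and EV WT cells, a run of groups in which each overlapped the next. For Nrn1 untransduced KO cells came first, whose libraries lay above all others. For Mt1 KO Th1 cells had the highest median but overlapped WT Th1 cells, whose library 3 was the highest of all. Mt2 was highest in KO Th1, untransduced KO and WT Th1 cells, which overlapped.

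Per kilobase of annotated exon, members differed widely in level. In untransduced WT cells Spp1 had 119 CPM per kb, Mt1 75.8, Mt2 67.2, Tfrc 45.7, Nrn1 26.0, Lgals3 12.5, Cd24a 3.78 and Smtn 2.37. The ratio of Mt1 to Mt2 counts was steadier than the level of either: it lay between 2.48 and 3.30 in Th1, 3.59 and 4.13 in Th2 and 1.71 and 2.48 in the labelled libraries of the second experiment. Th2 libraries did not overlap the other sets in this ratio. The 2 genes are close relatives, so reads that fit both could not be assigned and the ratio between them is uncertain.

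**Figure D5:**
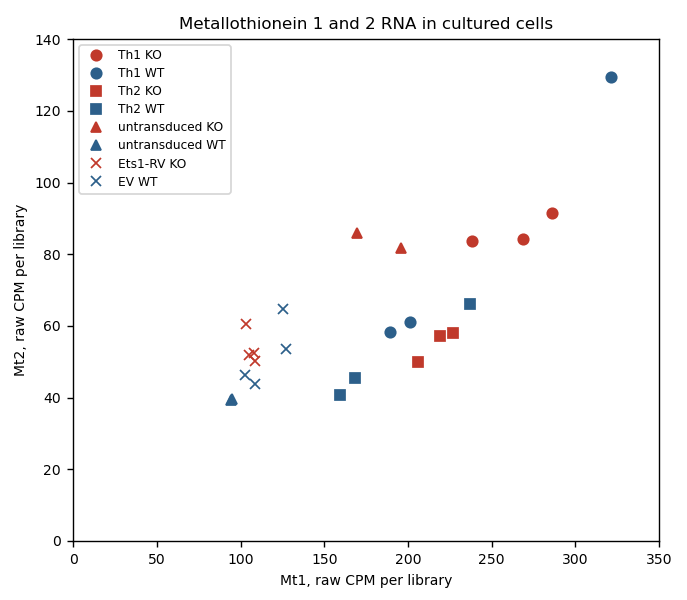
Mt2 against Mt1 raw CPM in each library of cultured cells, with colour for genotype and shape for group. WT Th1 library 3 is the highest for both genes, at 321 and 129 CPM, and untransduced KO libraries (196 and 169 CPM of Mt1) lie apart from untransduced WT (94.9 and 94.1).

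The genes whose group means were most like those of a member were found by Pearson's r over the 10 labelled groups among 9432 genes, on log2(CPM + 1) values. Naive groups are low and cultured groups high for the members, which all such correlations share, and the groups of a set share their culture and depth. Spp1 was closest to Ppa1 (r = 0.995) and Sytl3 (0.994), Tfrc to Shmt1 (0.991) and Strap (0.989), Lgals3 to Golt1b (0.991) and Selenon (0.990), and Nrn1 to Pck2 (0.989) and Rnh1 (0.988). Cd24a had no gene as near, with Slc25a15 (0.939) and Hscb (0.938) first. Smtn was closest to Trim28 (0.989) and Dusp22 (0.983), Mt1 to Pycr1 and Btf3 (both 0.998), and Mt2 to Btf3 (0.997) and Prdx2 (0.996). Among the members themselves Mt1 and Mt2 were most alike (0.994) and Tfrc and Cd24a least (0.565).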

How the data were processed

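Mouse CD4 T cell RNA was read in 36 libraries, of which 28 fell into 10 labelled groups. For each the authors deposited raw counts per gene, made with STAR 2.5.0a on GRCm38 per the submitters' processing notes; the kit was strand-specific per the labels' protocols. The strand that held 93.3% to 95.2% of stranded gene counts was used. The 4 summary lines of each table, which took 63.6% to 76.0% of what was tabulated, stayed out. Reads shared by near-identical copies can be lost in such counting. Symbols came from GENCODE M21 (45143 of 45706 identifiers matched).

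Groups were compared with edgeR 4.0.16 by its quasi-likelihood test (TMM, filterByExpr, Benjamini-Hochberg adjustment over all genes, threshold 0.05), and adjusted p values are from it except where DESeq2 is named. One fit held naive libraries, another those of the first Th1 and Th2 cultures, another naive with Th1 and Th2 libraries for contrasts between them, and another the second experiment with libraries of 1 B number summed. The scripts were tested on simulated counts. DESeq2 1.42.0, other scaling, no filter, counts without strand, a replicate block and leaving out libraries were alternatives. The labels tie no library to an animal or culture of its own. Each p for naive and first Th1 and Th2 libraries thus reflects variation between libraries that may be technical only. In the second experiment libraries of B number 1 carried Uty and those of B number 2 Xist and no Uty. Variation between its B numbers thus includes a difference of sex. No 2 libraries of a group agreed within sampling noise (lowest chi-square per degree of freedom 1.25). Intervals and limits cover counting error only.

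The 8 members and the gene lists were chosen with earlier results of these data known. Of each list, genes that passed the threshold are named, at most the 4 with the largest change, and the 2 genes most like each member by Pearson's r are named among those with a mean of at least 5 CPM.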

Additional observations from a re-analysis of the deposited data

Results flagged for a closer look

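The KO against WT difference of Cd24a differed between naive and Th1 cells, at -1.549 on the log2 scale for naive minus Th1 (SE 0.38, adjusted p = 0.0232). Genotype and sex cannot be told apart in the naive cells, so this value holds both. With a library left out it ran from -2.065 to -1.112, and the call ended without some single naive libraries. Cd24a had 7.30 and 3.64 CPM in naive KO and 8.90 and 8.54 CPM in naive WT cells, against 58.0, 47.0 and 37.1 CPM in KO Th1 and 27.2, 27.7 and 24.2 CPM in WT Th1 cells.

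In the 4 libraries titled KO with empty virus, which enter no comparison, Gm27162 had 44 counts in all, whereas no labelled KO library had any. The 8 members and Ets1 were each tested in Ets1-RV KO and in EV WT cells, 18 sets of 4 libraries, for 1 library far from the other 3, and none had one. Such a test cannot find a split of 2 and 2: over all genes, EV WT libraries of different B numbers differed by a chi-square per degree of freedom of 14.1 to 18.2, against 1.26 and 1.93 within a B number.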

How the results depend on the processing

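Over all tested values of the members, 963 values under alternative settings were computed. Of these, 907 kept their side of the threshold, 37 lost a call, 19 gained one and 0 called values reversed. The 907 include values called in neither fit whose sign changed. An example is Spp1 in Th1 KO against WT, at 0.293 and down to -0.53 with a library left out. Members called between naive KO and WT cells were 1, with 0 by DESeq2 and 0 to 1 with a library left out. Th1 KO against WT had 2 (2 to 4 with a library left out, 5 with no filter). Th2 KO against WT had 1 (0 with any library left out, 0 without strand, and 2 each with the replicate block, with no filter and when fitted alone). WT Th1 against WT Th2 had 5 (3 to 5 with a library left out). For the KO effect in Th1 minus Th2 the count of 0 became 1 with no filter. For naive minus Th1 it was 1 (0 to 1 with a library left out), and for naive minus Th2 it was 1 (0 to 1), and 0 with the replicate block, RLE size factors, no filter, counts without strand and DESeq2. That 1 is Smtn, which had too few naive counts to be tested in naive cells and entered through the Th libraries, so it is not read as a call. Members with more RNA in Ets1-RV KO than in EV WT cells were 7, and 4 to 8 with 1 B number of a group left out; there Smtn ranged from -0.017 (without B number 1 of Ets1-RV KO) to 0.589, and Mt1 from -0.250 to 0.003 (without B number 1 of EV WT). Smtn in EV WT against untransduced WT became -0.033 with counts without strand. The causes were not tested.

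Deviations of same-numbered KO and WT libraries correlated at -0.016, -0.253 and 0.091 in Th1 and -0.148, -0.011 and 0.225 in Th2 cells. For naive KO and WT libraries the value was -0.038. Same-numbered Th1 and Th2 libraries were mostly closer, at 0.042, 0.261 and 0.402 in WT and 0.101, -0.076 and 0.191 in KO cells. The main Th1 against Th2 tests did not pair them. With T number as a block, genes called were 3845 instead of 3717 in WT and 2304 instead of 2211 in KO cells. B numbers gave 2 pairs (0.160 and 0.184). With the replicate block, genes called were 63 instead of 41 between KO and WT Th2 cells, 212 instead of 137 between untransduced KO and WT, 95 instead of 62 between Ets1-RV KO and EV WT, and 45 instead of 21 between Ets1-RV KO and untransduced KO cells. With the libraries of 1 B number kept separate, an alternative chosen after seeing the data, the last 3 were 266, 441 and 126. Genes called over all alternatives ranged from 399 to 1993 (1987 reported) between naive KO and WT, 176 to 835 (462) in Th1, 14 to 224 (41) in Th2 and 1380 to 2528 (2211) between KO Th1 and KO Th2 cells. Low counts limit Cd24a and Smtn in the second experiment and all members but Tfrc in naive cells.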

Other observations

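For the 8 libraries whose title and transduction label name different viruses, each member's values fell into separate clusters by title set. Lgals3 had 16.4, 20.8, 10.7 and 11.7 CPM in the libraries titled KO with empty virus and 92.6, 79.9, 83.0 and 75.9 CPM in those titled WT with Ets1 virus. Cd24a had 5.84, 7.58, 3.17 and 3.50 CPM in the libraries titled KO with empty virus and 35.7, 35.8, 34.9 and 34.1 CPM in those titled WT with Ets1 virus. Nrn1 had 34.0, 44.8, 24.2 and 29.2 CPM in the libraries titled KO with empty virus and 83.2, 92.4, 130.0 and 130.3 CPM in those titled WT with Ets1 virus. In these genes every library titled WT with Ets1 virus lay above every library titled KO with empty virus. Smtn had 7.96, 6.26, 8.36 and 6.13 CPM in the libraries titled KO with empty virus and 18.8, 23.7, 29.5 and 23.4 CPM in those titled WT with Ets1 virus. Mt1 had 90.7, 84.7, 78.1 and 77.4 CPM in the libraries titled KO with empty virus and 188, 209, 146 and 164 CPM in those titled WT with Ets1 virus. Mt2 had 36.6, 35.6, 38.9 and 40.3 CPM in the libraries titled KO with empty virus and 99.5, 94.3, 54.1 and 65.6 CPM in those titled WT with Ets1 virus. The same held for these 3. Spp1 and Tfrc stood the other way round. Spp1 had 169, 178, 192 and 198 CPM in the libraries titled KO with empty virus and 135, 144, 143 and 139 CPM in those titled WT with Ets1 virus. Tfrc had 312, 335, 357 and 371 CPM in the libraries titled KO with empty virus and 205, 194, 223 and 223 CPM in those titled WT with Ets1 virus. Ets1 RNA was at 594, 565, 582 and 632 CPM in the libraries titled KO with empty virus and at 191, 189, 269 and 252 CPM in those titled WT with Ets1 virus. The range of the 4 titled WT with Ets1 virus holds both untransduced KO libraries (214 and 239 CPM), and the other 4 lay above every labelled library of the experiment. With Gm27162 at 0 in the 4 titled WT with Ets1 virus and at 2.65 to 4.90 CPM in the 4 titled KO with empty virus, these values go against the titles and with the names of the deposited tables. Since the labels disagree, the values are given per library only. These libraries belong to the second experiment, whose values chose the members, so the separation of the title sets is a description only. The share of all genes that separate in this way was not computed.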
